A study of Mus musculus with 6 samples.

Results

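The genes examined here were those of de novo lipogenesis, namely Srebf1, Acly, Acss2, Acaca, Acacb, Fasn, Elovl6, Scd1, Scd2 and Me1. These 10 genes were taken by symbol from the 38561 genes counted in each library, and all 10 were among the 16425 genes with enough counts to test. RNA came from scraped small intestinal mucosa of C57BL/6J mice of 8 to 12 weeks and of both sexes, in 3 pools labelled Rbm47_IKO and 3 labelled wt, with 3 mice per pool per the labels. According to the methods of the study, the knockout animals carried floxed Rbm47 alleles and a constitutive Cre driven by the villin promoter, which acts in the intestinal epithelium, and the controls, labelled wt, were floxed mice. Because each library is a pool, p-values measure the spread among pools and not among mice.

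De novo lipogenesis builds fatty acids from cytosolic acetyl-CoA. ACLY splits exported citrate and ACSS2 activates acetate to supply acetyl-CoA, acetyl-CoA carboxylases turn it into malonyl-CoA, and fatty acid synthase (FASN) assembles palmitate with NADPH as the reductant, part of which comes from malic enzyme (ME1). ELOVL6 then lengthens palmitate and the stearoyl-CoA desaturases introduce the first double bond. Most of these genes are known targets of SREBP1, the product of Srebf1, a membrane-bound transcription factor that is released by proteolysis after transport to the Golgi, so that its activity need not follow its mRNA. In the small intestine, enterocytes take up dietary fat and re-esterify it for chylomicrons, and also make fatty acids and cholesterol themselves.

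The targeted gene was examined first. Rbm47 (ENSMUSG00000070780, chromosome 5, 66016549 to 66173117, GRCm38) was measured in normalized CPM, which are counts scaled to a fixed total by the TMM library size. Its level in pools 1, 2 and 3, the order used throughout, was 603, 625 and 619.8 under the IKO label and 459.8, 449.9 and 472 under wt. It was thus not lower where the label names a knockout (log2 fold change 0.42, SE 0.10, edgeR adjusted p = 0.0751). The deleted exon is not given in the sources used here, and the count sums all exons of the gene. The libraries are therefore called labelled Rbm47-IKO, or labelled IKO for short, and every direction below rests on that label. Libraries held 31560320 to 38951830 counts. The 12 enterocyte markers were all detected in every library, with summed levels of 63223 to 69302 CPM in the labelled IKO and 70501 to 78038 CPM in the wt libraries. Singly they went both ways, 7 of 12 fitted higher, with 5 at an unadjusted edgeR p under 0.05 (16.8% over all genes), none called by edgeR and 4 by DESeq2 (7.63% over all genes). Of the other epithelial cells, the marker sums of goblet and enteroendocrine cells also parted the groups. Those of Paneth, tuft and stem cells overlapped. The 7 goblet markers summed to 22078 to 25534 CPM in the labelled IKO and 16538 to 19329 CPM in the wt libraries, and the 9 enteroendocrine markers to 128 to 139.7 and 168 to 215 CPM. Fcgbp alone made up 61.4% of the goblet sum. Without overlap, 2 of the 7 goblet genes were higher and 4 of the 9 enteroendocrine genes lower (11.7% and 11.6% over all genes). edgeR called none of the goblet and enteroendocrine genes. Of them, 2 goblet and 5 enteroendocrine genes had an unadjusted edgeR p under 0.05 (16.8% over all genes), and DESeq2 called 2 and 2 (7.63%). Their part in the results below was not tested. Over all genes, 443 of 16425 (2.7%) differed at an edgeR adjusted p of 0.05 or less, of which 238 (1.45%) were higher in the labelled IKO libraries. An unadjusted edgeR p under 0.05 was found for 16.8% of genes, and DESeq2 called 7.63%.

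Promoter sequence was read for the genes as RefSeq gives it on GRCm38.p6, in windows from 250 bases before to 50 after each transcript start. Windows were present for 8 of the 10 genes, 11 windows in all, since Srebf1 has 3 starts and Me1 has 2; Scd1 and Scd2 had no entry. Each window was searched on both strands for the sterol regulatory element TCACNCCAC, the E-box CACGTG, the CCAAT box bound by NF-Y and the GC box GGGCGG bound by Sp1, factors with which SREBPs are known to act. Stretches of 60 bases upstream of the start are shown for 6 genes, 4 enzymes with a match, Srebf1, and Elovl6 as an example without a match, each 5′ to 3′ on the strand of the gene with the CCAAT and GC boxes of either orientation in capitals.

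Fasn, chr11:120824588-120824647, minus strand: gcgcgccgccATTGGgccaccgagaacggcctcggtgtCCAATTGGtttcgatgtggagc

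Acly, chr11:100528071-100528130, minus strand: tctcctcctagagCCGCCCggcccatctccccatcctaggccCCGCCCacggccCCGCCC

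Acss2, chr2:155517888-155517947, plus strand: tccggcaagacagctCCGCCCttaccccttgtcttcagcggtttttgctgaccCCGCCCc

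Acacb, chr5:114165408-114165467, plus strand: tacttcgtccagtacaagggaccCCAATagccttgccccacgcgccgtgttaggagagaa

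Srebf1, first start, chr11:60222712-60222771, minus strand: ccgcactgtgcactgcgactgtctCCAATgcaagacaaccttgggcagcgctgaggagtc

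Elovl6, chr3:129532286-129532345, plus strand: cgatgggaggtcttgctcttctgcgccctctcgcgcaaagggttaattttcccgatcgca

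The Fasn window held 3 CCAAT boxes, at -90, -62 and -59 from the start, of which the last pair lie on opposite strands and overlap. The Acly window held 4 GC boxes and the Acss2 window 5. Of the 11 windows, 9 held at least 1 of these motifs, and the windows of Acaca and Elovl6 held none. CCAAT occurs in 37.4% and GGGCGG in 35.7% of the 32851 RefSeq windows of this length, so that a match is common. TCACNCCAC (1.24% of all windows) and CACGTG (7.15%) were found in no window of these genes, which says only that these letters are not in these windows. The RefSeq starts of Acaca (84195438), Acacb (114165518) and Acss2 (155518043) lie inside the gene spans of the deposited tables. That of Fasn (120824547) lies upstream of its deposited span, which begins at 120824178 on the minus strand. Counts per gene cannot separate the starts of one gene.

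The question asked of the deposited libraries was whether the mRNA of lipogenesis differed between the genotypes. By edgeR, 1 gene of the 10, Acaca, passed the threshold and rose 1.67-fold. DESeq2 called 6 (7.63% over all genes) and edgeR 4 with smooth muscle genes as a covariate. With that covariate edgeR called 716 of all 16425 genes, beside 443 without it. edgeR called 0 with upper-quartile scaling, the pool number as a block or the Y-linked covariate (533, 100 and 58 over all genes). Acaca, Fasn, Scd2, Elovl6, Acly and Acss2 were each higher in every library labelled Rbm47-IKO than in every wt library, whereas Srebf1, Acacb, Scd1 and Me1 overlapped between the groups. The genes called, 1 of 10 (10%), stand beside 2.7% called over all genes and 1.45% called higher. The 6 of 10 genes with separate groups stand beside 11.7% of all genes that were higher without overlap and 11.6% that were lower without overlap. The median log2 fold change was 0.43 over the 10 genes and -0.00586 over all genes tested. No test was run over the list.

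**Figure D1:**
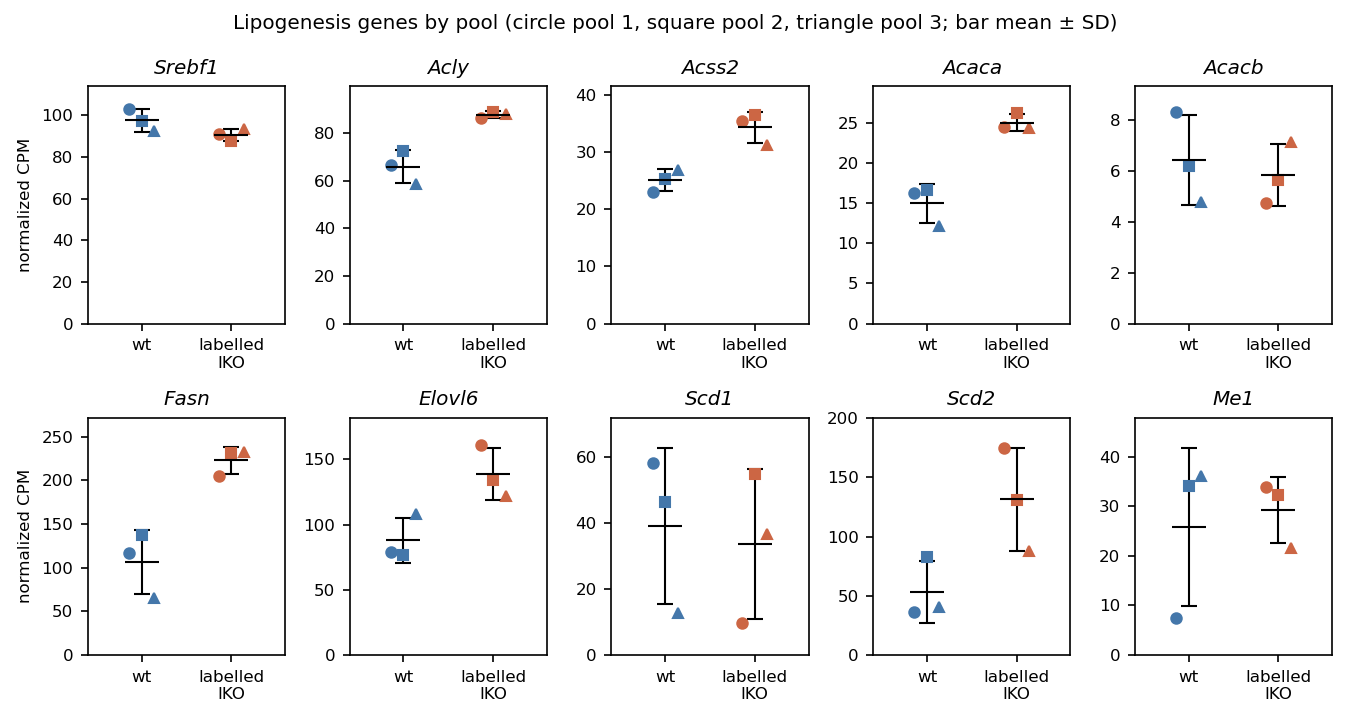
Normalized CPM (y axis, from 0) of each of the 10 genes in the wt and the labelled Rbm47-IKO pools, with each symbol a pool and the bar the mean ± SD of 3 pools. Acaca, Fasn, Scd2, Elovl6, Acly and Acss2 show groups that do not overlap, while Scd1 spans 9.68 to 58.3 CPM with both groups spread over most of that range.

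Srebf1 (ENSMUSG00000020538, chromosome 11, 60199089 to 60222581), which encodes both SREBP1 isoforms, was nearly level across the pools. Its normalized CPM was 90.9, 87.7 and 93.5 in the labelled IKO pools and 103, 97.3 and 92.4 in the wt pools. The groups overlapped, and the highest pool was 1.17 times the lowest, the narrowest range of the 10 genes. The log2 fold change was -0.11 (SE 0.09, edgeR adjusted p = 0.664), and its 95% interval ran from -0.32 to 0.11, so that a difference of the size measured for Acaca lies outside it. SREBP1a and SREBP1c are made from different starts of the gene, which its count sums.

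Genes whose profile lay closest to that of Srebf1 were sought among all genes tested, by the root mean square difference of centred log2 CPM over the 6 pools. The closest were Rpap1 (0.0193), Zfp664 (0.0273), Kif1bp (0.0277), Ubox5 (0.0325) and Eps15l1 (0.035), none of them a lipogenic enzyme. Among the enzymes, Acacb lay nearest at 0.243 (rank 7017) and Scd1 farthest at 0.998 (rank 15771). These distances are a description, since a level gene is close to any other level gene.

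Both suppliers of cytosolic acetyl-CoA were higher in the labelled IKO pools by a similar, modest amount that missed the edgeR threshold, while DESeq2 called both (adjusted p = 0.0173 for Acly and 0.0319 for Acss2). Acly (ENSMUSG00000020917, chromosome 11, 100476353 to 100528000), which encodes ATP citrate lyase, had 86.3, 89.1 and 88.1 CPM against 66.6, 72.7 and 58.6 in wt. Its labelled IKO pools had a coefficient of variation of 1.65%, the lowest of any group of the 10 genes, and all were above the wt pools. The log2 fold change was 0.41 (SE 0.11, edgeR adjusted p = 0.0977). Acss2 (ENSMUSG00000027605, chromosome 2, 155517948 to 155585724), the acetyl-CoA synthetase, had 35.4, 36.4 and 31.3 CPM against 23.0, 25.3 and 26.8 in wt. The groups did not overlap, and the log2 fold change was 0.46 (SE 0.11, edgeR adjusted p = 0.0834, and 0.0478 with scaling by library size alone). Of 13 other settings Acss2 passed in 2, DESeq2 and library size, and Acly in 1, DESeq2. Neither passed in any of the 6 fits lacking a pool (edgeR adjusted p-values of 0.116 to 0.384 for Acss2 and 0.0724 to 0.383 for Acly). Exons of Acss2 share 9.12% of their bases with Acss2os, Ggt7 and Gss on the opposite strand, and whether the counting used strand is not given, so that reads from that stretch cannot be assigned. Gss, the glutathione synthetase gene, had a log2 fold change of 0.43 (SE 0.19, edgeR adjusted p = 0.304).

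Of the acetyl-CoA carboxylase genes, Acaca passed the threshold and Acacb did not. Acaca (ENSMUSG00000020532, chromosome 11, 84129672 to 84401651) encodes the cytosolic ACC1 that feeds fatty acid synthesis. It had 24.5, 26.2 and 24.3 CPM in the labelled IKO pools and 16.2, 16.6 and 12.2 in the wt pools. The labelled IKO pools lay close together and well above all wt pools, with means of 25.0 ± 1.06 and 15.0 ± 2.47 (SD, n = 3 pools each), and Acaca rose by a log2 fold change of 0.74 (SE 0.15, 95% interval 0.40 to 1.08, edgeR adjusted p = 0.0451). This call sat at the edge of the threshold. Leaving out each pool in turn kept the fitted change between 0.61 and 0.82, but the gene passed only without wt pool 2, with edgeR adjusted p-values of 0.0463 to 0.238 over the 6 fits. It also missed the threshold with upper-quartile scaling (0.70, adjusted p = 0.056) and without any scaling beyond library size (0.72, adjusted p = 0.0591). The same held with the pool number as a block (0.75, adjusted p = 0.0799) and with the adipocyte covariate described below (0.71, adjusted p = 0.0657). With the summed log2 CPM of 4 Y-linked genes as a covariate it missed again (0.66, adjusted p = 0.157). These genes summed to 139, 53.0 and 144 CPM in the labelled IKO pools and 215, 87.9 and 220.3 in wt. All 4 were detected in every pool, in unequal amounts. The number of males in each pool was not available, so that a balance of the sexes between pools cannot be assumed.

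Acacb (ENSMUSG00000042010, chromosome 5, 114146535 to 114250761) encodes ACC2 at the mitochondrial surface, whose malonyl-CoA restrains fatty acid oxidation. It had 4.74, 5.65 and 7.14 CPM against 8.32, 6.22 and 4.77 in wt. The groups covered the same range, with a log2 fold change of -0.14 (SE 0.26, 95% interval -0.74 to 0.46, edgeR adjusted p = 0.867). Per kilobase of gene length, Acaca was 4.91, 4.41 and 3.23 times Acacb in the labelled IKO pools and 1.85, 2.53 and 2.42 times in the wt pools. The ratio was higher in every labelled IKO pool (exact two-sided permutation test, p = 0.1, the smallest that 3 pools against 3 allow; 0.133 adjusted over 4 ratios). These genes are paralogs, and reads could in part be shared between them.

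Fasn (ENSMUSG00000025153, chromosome 11, 120805940 to 120824178), the multidomain enzyme that makes palmitate, showed the second widest fitted difference of the 10 genes. Its CPM was 205, 231 and 233 in the labelled IKO pools and 117, 137 and 65.2 in the wt pools. Every labelled IKO pool exceeded every wt pool, and the wt pools were more scattered, with a coefficient of variation of 34.9% against 7.09%. The log2 fold change was 1.07 (SE 0.25, 95% interval 0.48 to 1.65), a 2.10-fold difference that missed the threshold (edgeR adjusted p = 0.0726). Over the 6 fits lacking a pool the value ran from 0.82 to 1.30, and it passed only without wt pool 2, the pool with the highest wt value, with edgeR adjusted p-values of 0.0445 to 0.279. DESeq2 called it (adjusted p = 0.000236). Per kilobase, Fasn was 8.6, 9.06 and 9.87 times Acaca in the labelled IKO pools and 7.4, 8.52 and 5.53 times in wt (exact two-sided permutation test, p = 0.1; 0.133 adjusted over 4 ratios). The CCAAT boxes printed for Fasn lie upstream of the RefSeq start at 120824547.

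**Figure D2:**
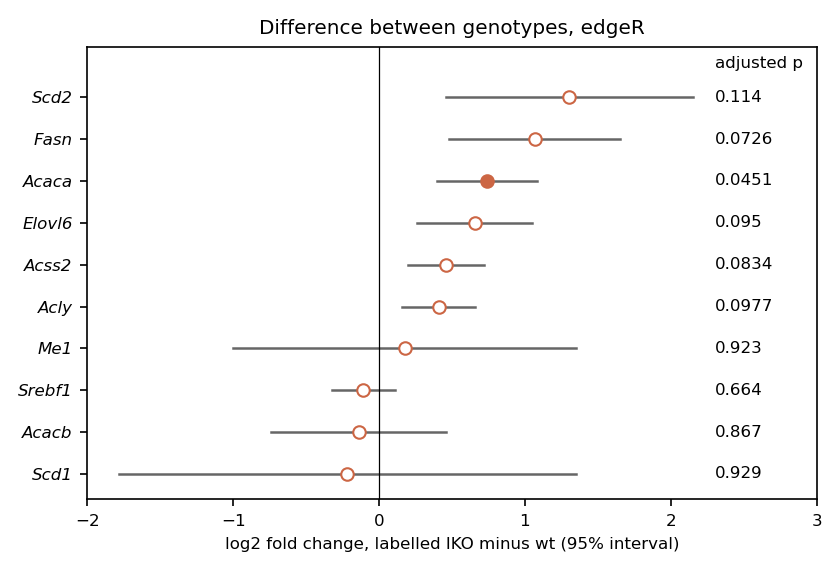
Fitted log2 fold change of the libraries labelled Rbm47-IKO over wt (x axis) with its 95% interval for each gene, the edgeR adjusted p at the right and a filled point where it is 0.05 or less. Acaca alone is filled; the intervals of Scd2, Fasn, Elovl6, Acss2 and Acly, which missed the adjusted threshold, also lie above 0, and those of Me1, Srebf1, Acacb and Scd1 span 0.

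Among the genes that modify palmitate, Elovl6 and Scd2 were higher without overlap and Scd1 was not. Elovl6 (ENSMUSG00000041220, chromosome 3, 129532386 to 129638495), the elongase of saturated 16-carbon chains, had 161, 134 and 122 CPM in the labelled IKO pools and 79.0, 76.9 and 108 in wt. The gap was narrow, between 122 in labelled IKO pool 3 and 108 in wt pool 3. The log2 fold change was 0.66 (SE 0.17, 95% interval 0.26 to 1.05, edgeR adjusted p = 0.095), and DESeq2 called it (adjusted p = 0.0107). Elovl6 passed in 3 of 13 other settings and in none of the 6 fits lacking a pool (edgeR adjusted p-values of 0.0739 to 0.307).

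Scd2 (ENSMUSG00000025203, chromosome 19, 44293676 to 44306864), a stearoyl-CoA desaturase, had 175, 131 and 88.1 CPM against 36.4, 83.0 and 40.3 in wt. The lowest labelled IKO pool only just exceeded the highest wt pool, and the pools of each group differed widely. Scd2 had the largest fitted difference of the 10 genes, a log2 fold change of 1.30 (SE 0.36, 95% interval 0.46 to 2.15, edgeR adjusted p = 0.114). Over the 6 fits lacking a pool the value ran from 1.04 to 1.78, and it passed only without wt pool 2, with edgeR adjusted p-values of 0.0289 to 0.344. DESeq2 called it (adjusted p = 0.00129). The pools labelled IKO 3 and wt 2 also held the most RNA of 6 smooth muscle genes, 3302 and 2803 CPM summed against 90.7 to 586 in the other pools. With the summed log2 CPM of these genes as a covariate Scd2 passed the threshold (log2 fold change 1.30, edgeR adjusted p = 0.0466). Of 13 other settings Scd2 passed in 2, this one and DESeq2. By edgeR it missed with the pool number as a block (adjusted p = 0.124), the adipocyte covariate described below (0.156) and the Y-linked covariate (0.257). Whether smooth muscle RNA bears on Scd2 was not tested.

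Scd1 (ENSMUSG00000037071, chromosome 19, 44394451 to 44407709), the desaturase best known from liver and fat, had 9.68, 54.8 and 36.8 CPM against 58.3, 46.5 and 12.8 in wt. Low and high pools occurred in both groups, with the highest 6.03 times the lowest. The log2 fold change was -0.22 (SE 0.67, edgeR adjusted p = 0.929), and the 95% interval from -1.78 to 1.35 covers sizeable differences in either direction. The sign turned without labelled IKO pool 1 (0.22) and without wt pool 1 (0.19). Scd1 and Scd2 are neighbouring paralogs, between which the authors' counting could have split reads. Per kilobase, Scd2 was 16.1, 2.12 and 2.13 times Scd1 in the labelled IKO pools and 0.554, 1.58 and 2.79 times in wt, and these ratios overlapped (exact two-sided permutation test, p = 0.3, also 0.3 adjusted over 4 ratios).

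Over the whole list of 8 adipocyte markers, the summed level was 135, 202 and 166 CPM in the labelled IKO pools and 156, 210.1 and 168 in wt, an order that Scd1 did not follow, since wt pool 3 was low in Scd1 only. Of the 8 adipocyte markers, 6 were above 3 counts in every pool. Cidec made up 78.6% of the summed level at 105 to 161 CPM and was at its highest, 161 CPM, in wt pools 2 and 3. Lep had at most 15 counts. The other 6, a subset taken after the values were seen (Adipoq, Plin1, Fabp4, Retn, Cfd and Car3) summed to 6.07, 70.2 and 60.4 CPM in the labelled IKO pools and 28.6, 48.5 and 6.53 in wt. Labelled IKO pool 1 and wt pool 3 were lowest both in this sum of 6 genes and in Scd1. Thrsp, a lipogenic cofactor gene abundant in fat, was likewise lowest there, at 0.26 and 0.384 CPM against 1.47 to 5.11 in the other pools. With the log2 CPM of these 6 genes, summed, as a covariate, the log2 fold change of Scd1 was -0.68 (edgeR adjusted p = 0.229) and that of Fasn 1.03 (adjusted p = 0.0573). That of Acaca was 0.71 (adjusted p = 0.0657) and that of Elovl6 0.74 (adjusted p = 0.0363). These fits use genes picked with their values in view and without Cidec, and no conclusion on adipocyte RNA is drawn from them. In bulk RNA, fewer cells of a type and less RNA per cell cannot be told apart.

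**Figure D3:**
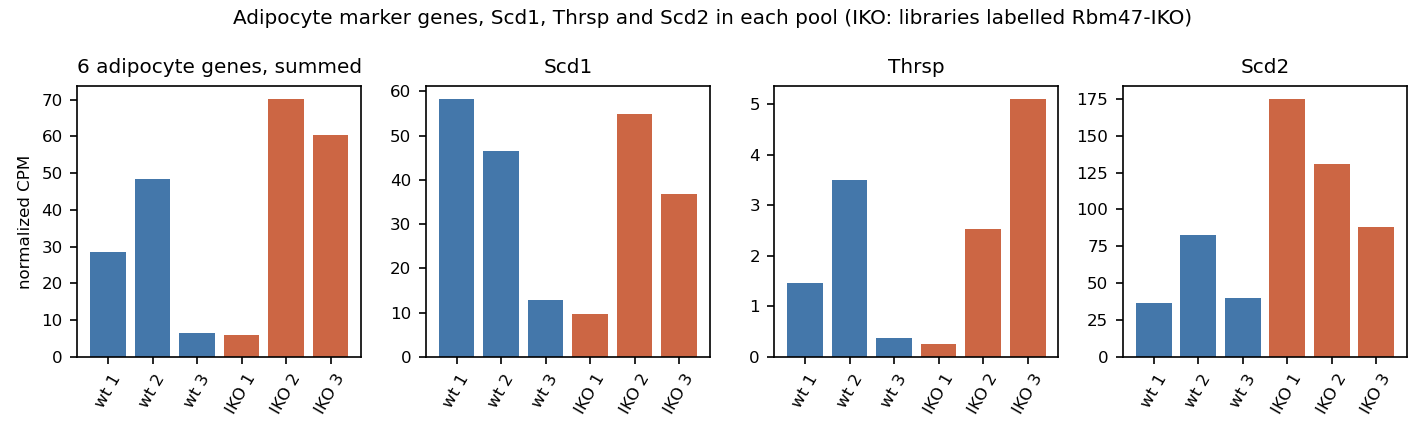
Normalized CPM in each of the 6 pools (bars, from 0) of 6 adipocyte marker genes summed, of Scd1, of Thrsp and of Scd2. The 6 genes are a subset of the 8 markers, taken after the values were seen. Cidec, left out, made up 78.6% of the sum of all 8 and was highest, at 161 CPM, in wt pools 2 and 3. Labelled IKO pool 1 and wt pool 3 are lowest in the first 3 panels, while Scd2 is highest in labelled IKO pool 1.

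Me1 (ENSMUSG00000032418, chromosome 9, 86581363 to 86695914), the cytosolic malic enzyme, was not separable between the groups. It had 33.9, 32.2 and 21.7 CPM in the labelled IKO pools and 7.50, 34.1 and 36.1 in wt. Of the 6 pools, 5 lay between 21.7 and 36.1 CPM and wt pool 1 stood at 7.50. The log2 fold change was 0.18 (SE 0.51, 95% interval -1.0 to 1.35, edgeR adjusted p = 0.923), and it was -0.26 without wt pool 1. Of 9 other genes of NADPH supply and of the other malic enzymes, none passed the edgeR threshold, 4 had an unadjusted p under 0.05 (16.8% over all genes) and DESeq2 called 4 (7.63%). The 9 genes had a median log2 fold change of 0.11, and 3 were higher and 1 lower without overlap (11.7% and 11.6% over all genes). G6pdx, the entry enzyme of the pentose phosphate pathway, had the largest value (0.82, SE 0.23, edgeR adjusted p = 0.121), followed by Me2 (0.58, SE 0.14, adjusted p = 0.0729), whose product is a mitochondrial malic enzyme that uses mainly NAD and is no source of cytosolic NADPH. Pgd, the other dehydrogenase of that pathway, had 297, 304 and 233 CPM against 163, 212 and 185 (0.57, SE 0.15, adjusted p = 0.0979).

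Levels of the 10 genes were compared per kilobase of gene length. Averaged over the 6 pools, Elovl6 led with 19.1 CPM per kilobase, followed by Scd2 (16.9), Srebf1 (16.7), Fasn (16.7), Acly (14.6), Me1 (8.48), Scd1 (7.54), Acss2 (2.92), Acaca (1.97) and Acacb (0.637). The order of the first 5 differed between the groups. In the labelled IKO pools it was Scd2 (24.1), Elovl6 (23.4), Fasn (22.6), Acly (16.6) and Srebf1 (16.1), and in wt Srebf1 (17.3), Elovl6 (14.8), Acly (12.5), Fasn (10.8) and Scd2 (9.76). Over all 6 pools, neighbours among the first 4 were not separable, since each exceeded the next in only 2 to 4 of the 6 pools, and Me1 exceeded Scd1 in 3. Acly exceeded Me1, Acss2 exceeded Acaca and Acaca exceeded Acacb in all 6. The carboxylase mRNAs had the lowest means of the set, although Scd1 stood at 2.0 CPM per kilobase in labelled IKO pool 1, and Acacb ranged only from 0.492 to 0.864 CPM per kilobase. The lowest count behind any member in any pool was 164.

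**Figure D4:**
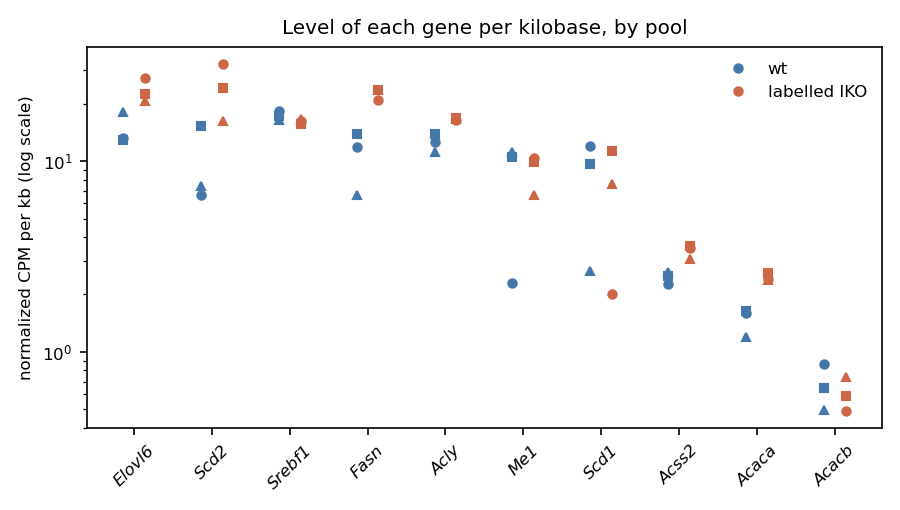
Normalized CPM per kilobase of gene length (log scale) for each gene and pool, ordered by the mean over the 6 pools, with circles, squares and triangles for pools 1, 2 and 3. Elovl6, Scd2, Srebf1, Fasn and Acly overlap between 6.62 and 32.2, and Acss2, Acaca and Acacb lie at or below 3.59 in every pool.

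Of 37 further genes of fatty acid synthesis, elongation, desaturation and activation, 32 were tested and 2 rose by edgeR (6.25%, beside 1.45% of all genes), Aacs and Elovl1, while DESeq2 called 7 (7.63% over all genes). None fell by edgeR, and the median log2 fold change was 0.20. Aacs encodes acetoacetyl-CoA synthetase, which turns ketone bodies into cytosolic precursors of lipid. Its level was 79.4, 83.7 and 63.6 CPM in the labelled IKO pools and 28.9, 33.6 and 28.9 in wt, a rise of 1.31 on the log2 scale (SE 0.14, edgeR adjusted p = 0.00875). Elovl1, an elongase of very long chains, had 240, 248 and 201 CPM beside 96.8, 117 and 129, a rise of 1.01 (SE 0.14, edgeR adjusted p = 0.0172). Without labelled IKO pool 1, labelled IKO pool 2 or wt pool 3, neither passed (adjusted p-values of 0.0504 to 0.116). Elovl1 also missed the threshold with the Y-linked covariate (adjusted p = 0.0927) and with the pool number as a block (adjusted p = 0.0711). Without overlap, 12 of the 32 were higher and 1 lower, beside 11.7% and 11.6% of all genes. Of the 32, 22 were fitted higher and 10 lower, and the genes named next were picked with their values in view. Among the 12, Slc25a1, the mitochondrial citrate carrier, had 161, 172 and 138 CPM against 78.6, 107 and 123 in wt (edgeR adjusted p = 0.12). Mid1ip1, which promotes polymerization of acetyl-CoA carboxylase, had 24.8, 24.0 and 20.9 against 13.6, 16.5 and 12.0 (adjusted p = 0.0542). Hsd17b12 and Tecr, reductases of the elongation cycle, had log2 fold changes of 0.51 (adjusted p = 0.0519) and 0.54 (adjusted p = 0.0888). Fads2, the delta-6 desaturase, was higher without overlap (0.62, adjusted p = 0.192) and its neighbour Fads1 was not (0.03, adjusted p = 0.983). Olah, Elovl2, Elovl3, Scd3 and Scd4 had too few counts to test, at most 21 in any pool.

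Among 26 genes that control SREBPs or lipogenic transcription, 2 rose and 1 fell by edgeR (11.5% called, beside 2.7% of all genes). DESeq2 called 4 (7.63% over all genes), and the median log2 fold change was -0.03. Without overlap, 3 were higher and 7 lower, beside 11.7% and 11.6% of all genes. Srebf2, the gene of the sterol-responsive paralog of SREBP1, rose from 109.6 ± 0.576 to 255 ± 12.0 CPM (SD, n = 3 each), a log2 fold change of 1.22 (SE 0.10, edgeR adjusted p = 0.00596). Per kilobase, Srebf2 was 3.24, 3.39 and 2.92 times Srebf1 in the labelled IKO pools and 1.2, 1.28 and 1.34 times in wt, with no overlap (exact two-sided permutation test, p = 0.1; 0.133 adjusted over 4 ratios). Insig1, which retains the SREBP escort SCAP in the endoplasmic reticulum and is itself an SREBP target, rose from 55.1 ± 15.9 to 112 ± 7.84 CPM (SD, n = 3 each), a log2 fold change of 1.03 (SE 0.20, edgeR adjusted p = 0.0434). Mbtps2, the site-2 protease that frees SREBPs from the membrane, fell from 9.33 ± 1.18 to 5.03 ± 0.187 CPM (SD, n = 3 each), a log2 fold change of -0.89 (SE 0.17, edgeR adjusted p = 0.0393). Scap itself had a log2 fold change of 0.24 (adjusted p = 0.341), the site-1 protease gene Mbtps1 -0.05 (adjusted p = 0.86), and Insig2 -0.46 (adjusted p = 0.0649), with all labelled IKO pools of Insig2 below all wt pools. Srebf2 kept its call with every pool left out in turn except labelled IKO pool 2 (edgeR adjusted p = 0.057), whereas Insig1 was called in none of the 6 fits with a pool left out (adjusted p-values of 0.0504 to 0.215) and Mbtps2 in 1, without wt pool 2. Both Insig1 and Mbtps2 also missed the threshold with the Y-linked covariate (adjusted p = 0.166 and 0.149) and with the pool number as a block (0.0818 and 0.0821). They missed it too with the GC offset (0.0676 and 0.0686) and the adipocyte covariate (0.0568 and 0.0804), and Insig1 with RLE scaling (0.0542).

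Of the lists for other inputs to lipogenesis, those of LXR and ChREBP targets gave no edgeR calls. Of 8 LXR target genes, which answer oxysterols, none passed the edgeR threshold, 3 had an unadjusted p under 0.05 (16.8% over all genes), DESeq2 called 2 (7.63%), and the median was -0.23. Of the 8, 7 were fitted lower, and without overlap 3 were lower and 0 higher (11.6% and 11.7% over all genes). The largest values were Smpdl3a (-0.54, adjusted p = 0.107) and Mylip (0.39, adjusted p = 0.379), while Nr1h3, the LXR-alpha gene, had -0.28 (adjusted p = 0.234). Of 7 ChREBP target genes tested, which answer sugar, none passed the edgeR threshold, 3 had an unadjusted p under 0.05 and DESeq2 called 1, beside the same shares, and the median was -0.28. Of the 7, 6 were fitted lower, and without overlap 3 were lower and 0 higher. Tkfc, a kinase of fructose breakdown, had -0.55 (adjusted p = 0.259), and Mlxipl, the ChREBP gene itself, had -0.20 (adjusted p = 0.722). Of 13 PPARA and fasting genes, many of which act in fatty acid oxidation, 3 were higher and 3 lower without overlap (11.7% and 11.6% over all genes). edgeR called 2 (15.4%, beside 2.7% of all genes) and DESeq2 3 (7.63% over all genes). The 2 that fell by edgeR were Ehhadh (-1.46, SE 0.15, edgeR adjusted p = 0.00875) and Acadm (-0.74, SE 0.11, adjusted p = 0.0188). Without labelled IKO pool 1, labelled IKO pool 2 or wt pool 3 neither was called, nor was Acadm without labelled IKO pool 3 (adjusted p-values up to 0.0676 for Ehhadh and 0.122 for Acadm). Of 17 clock genes, 4 were higher and 0 lower without overlap (11.7% and 11.6% over all genes). edgeR called 2 (11.8%, beside 2.7% of all genes) and DESeq2 2 (7.63% over all genes). Ciart (2.01, adjusted p = 0.00872) and Hlf (1.17, adjusted p = 0.0409) rose. Hlf was called in none of the 6 fits with a pool left out (adjusted p-values of 0.0591 to 0.192) and Ciart in 4, not without labelled IKO pool 2 or wt pool 3 (up to 0.0652). The time of tissue collection is not given in the labels, and its part in these values was not tested.

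Cholesterol synthesis and uptake, the other lipid pathway under SREBP control, was taken for comparison. Of its 22 genes 17 (77.3%) rose by edgeR, beside 1.45% of all genes called higher, and none fell. Without overlap, 20 were higher (11.7% over all genes) and 1 lower (11.6%). The median log2 fold change was 0.98, against 0.43 for lipogenesis, where 1 of 10 genes was called. Both lists hold known SREBP targets, and SREBP2 is the form that acts mainly on the cholesterol genes. The pathway enzymes Mvk (log2 fold change 1.45, edgeR adjusted p = 0.00854), Fdft1 (1.42, adjusted p = 0.00854), Mvd (1.49, adjusted p = 0.00875) and Fdps (1.48, adjusted p = 0.00875) rose. The number of calls in this list depended on single pools. edgeR called 0 of the 22 without labelled IKO pool 2 (20 at an unadjusted p under 0.05), 2 without wt pool 3 and 4 without labelled IKO pool 1. Over all genes, the same fits called 0 (1729 of 17001 at an unadjusted p under 0.05), 11 and 32, so that calls fell in the whole comparison. Leaving out any other pool left 12 or 13 (119 to 431 over all genes). With all pools, edgeR called 7 with the Y-linked covariate and 8 with the pool number as a block (58 and 100 over all genes). DESeq2 called 19 (7.63% over all genes). The difference between the lists was not tested.

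**Figure D5:**
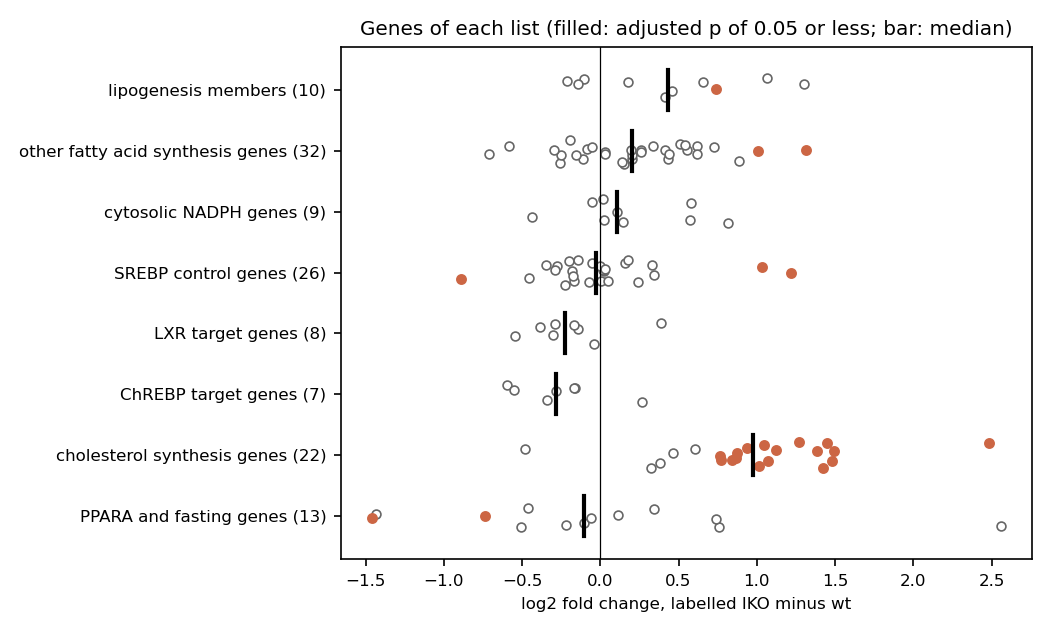
Fitted log2 fold change (x axis) of every tested gene in 8 lists, the number tested in parentheses, with filled points at an edgeR adjusted p of 0.05 or less and a bar at the median. Medians stand at 0.43 for the lipogenesis genes, 0.20 for the other fatty acid synthesis genes, -0.03 for the SREBP control genes and 0.98 for the cholesterol synthesis genes.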

How the data were processed

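Per the labels, RNA of the small intestinal mucosa was sequenced in 6 pools, 3 per genotype. For each pool the authors deposited raw read counts for 38561 Ensembl genes. The deposited CPM values divide each count by the pool total, and the deposited RPKM values further divide by gene length. A recalculation from the counts gave both to within rounding, and neither entered a test. The submitters' processing notes name STAR 2.5.1a, Subread featureCounts 1.4.6-p5 and GRCm38, and the use of strand is not given in the sources used here.

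Symbols were found for 36639 genes, and rows without one held 0.369% of the counts. Counts were analysed in R 4.3.3 with edgeR 4.0.16 (filterByExpr, TMM, quasi-likelihood test, Benjamini-Hochberg adjustment over the 16425 genes tested, threshold 0.05). Alternatives used limma 3.58.1 and DESeq2 1.42.0, other scalings and filters, covariates and the pool number as a block, and each pool was left out in turn. The adipocyte covariate and the GC offset were added after the data were seen. Figures were drawn with Python 3.11.15 and matplotlib 3.10.9. Pools held 31560320 to 38951830 counts, and 3 counts were taken as the floor of detection, for counting error only. Exons were compared with GENCODE M21.

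The members and lists were chosen with earlier results of these data known. Named genes were the members, Rbm47, up to 6 genes past the threshold in each pathway list by smallest adjusted p (the 2 with the largest change where fewer than 2 passed), genes that set a marker sum, and the 5 genes most like Srebf1. Slc25a1, Mid1ip1, Hsd17b12, Tecr, Pgd, Thrsp, Fads1, Fads2, Scap, Insig2, Mbtps1, Nr1h3, Mlxipl and Gss are not covered by it and were picked with their values in view. Some genes that the rule names are not reported here.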

Additional observations from a re-analysis of the deposited data

How the results depend on the processing

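Directions of Srebf1, Acaca, Fasn, Scd2, Elovl6, Acly and Acss2 held in all 19 other fits. The median over the 10 genes stayed at 0.39 to 0.51. Counts of calls moved. Of all genes, 443 were called, and 1252 by DESeq2, 716 with the smooth muscle covariate, 266 with the GC offset, 227 with the adipocyte covariate, 100 with the pool number as a replicate block and 58 with the Y-linked covariate. With 1 pool left out, 0 to 431 were called: edgeR called 0 without labelled IKO pool 2 (1729 at an unadjusted p under 0.05), 11 without wt pool 3, 32 without labelled IKO pool 1 and 119 without labelled IKO pool 3. Of the 10 lipogenesis genes, 6 were called by DESeq2, 4 with the smooth muscle covariate, 2 with no filter, 0 with upper-quartile scaling, 0 with the replicate block, 0 with the Y-linked covariate and 0 to 3 with a pool left out. Of the pathway lists, 26 genes were called, 42 by DESeq2, 12 with the replicate block, 11 with the Y-linked covariate and 0 to 23 with a pool left out. Acaca was called in 8 of 13 other settings. Acacb ranged from -0.31 to 0.09, Scd1 from -0.76 to 0.22 and Me1 from -0.26 to 0.50 with a pool left out, and Me1 was -0.01 with the Y-linked covariate. The cause of these moves was not tested.

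Same-numbered pools deviated together for pools 1 (correlation 0.408) but not for pools 2 (-0.00258) and 3 (-0.277), so that the numbers were not taken to pair the samples, and not every pool correlated best with its own number. The replicate block left Acaca at 0.75 (edgeR adjusted p = 0.0799), ended the calls of Insig1 (0.0818), Mbtps2 (0.0821) and Elovl1 (0.0711), and left 8 cholesterol synthesis genes called. At 164 or more counts per pool, the spread between pools limits Scd1, Me1 and Acacb.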
